A study of Mus musculus with 16 samples.

Results

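The glycolysis and hypoxia genes described here are 33 named genes, looked up by gene symbol among the 56748 genes of an RNA-Seq data set of splenic memory CD4+ T cells. All 33 were found. The rule takes the genes by name and sets no threshold on a measured value, but the list was drawn up with earlier results of these data known. The cells were CD4+CD25low/-CD62L-CD44high T cells sorted from mouse spleen, and the question was what loss of HP1α or HP1γ, chromatin proteins that bind methylated histone H3 and help to keep genes silent, changes in them. There were 16 samples, 4 in each group. HP1α KO cells came from Hp1a-/- mice, derived from a floxed allele deleted in every tissue with CMV-cre, and HP1α WT cells from their Hp1a+/+ littermates. HP1γ KO cells came from mice with floxed Hp1g and Cd4-cre, which deletes in T cells, and HP1γ WT cells from floxed littermates without Cre, so that in this line the effect of Cre itself and that of HP1γ loss cannot be told apart. All mice were sex-matched littermates of 6 to 12 weeks on a mixed 129/Sv and C57BL/6 background.

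Glycolysis splits glucose into pyruvate, which activated T cells largely turn into lactate and export, whereas resting memory cells draw more on mitochondrial respiration. In low oxygen the transcription factor HIF-1α escapes the degradation for which prolyl hydroxylases mark it. Antigen receptor and mTOR signalling raise HIF-1α too. HIF-1α raises the genes of glucose transporters, of most glycolytic enzymes and of proteins that spare oxygen. The 33 genes cover glucose uptake (Slc2a1 and Slc2a3), the enzymes from hexokinase to pyruvate kinase, lactate formation and export (Ldha, Slc16a1 and Slc16a3), oxygen sensing (Hif1a, Egln1 and Egln3) and genes induced in hypoxia (Vegfa, Bnip3, Pdk1, P4ha1, Ankrd37, Ndrg1, Mxi1 and Ak4).

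The groups differed by line more than by genotype. No glycolysis or hypoxia gene passed the test between HP1α KO and HP1α WT cells or between HP1γ KO and HP1γ WT cells. Over all genes tested, 0% and 0.327% did. Between the WT cells of the lines 10 of the 32 tested differed, against 12.8% of all genes. Of these, 9 were lower in HP1α WT cells, against 8.25% of all genes. Vegfa, Hk2, Egln3 and Pfkp were called in that comparison under each of the 20 other ways of fitting it, which is why the bases upstream of these 4 genes are shown. Each window holds the 250 bases before the start of the gene's canonical transcript (GRCm39, written 5′ to 3′ on the strand of the gene). Capitals mark ACGTG, the core to which HIF binds, or its reverse complement CACGT. The other form of the core, GCGTG, was searched on both strands too and was absent from these 4 windows.

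Vegfa, chr17:46343310-46343559, minus strand: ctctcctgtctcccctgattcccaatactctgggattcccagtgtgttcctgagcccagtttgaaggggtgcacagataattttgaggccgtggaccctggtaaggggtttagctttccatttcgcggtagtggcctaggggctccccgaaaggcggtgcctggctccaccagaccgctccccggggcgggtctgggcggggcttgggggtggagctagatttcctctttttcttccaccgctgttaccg
Hk2, chr6:82751453-82751702, minus strand: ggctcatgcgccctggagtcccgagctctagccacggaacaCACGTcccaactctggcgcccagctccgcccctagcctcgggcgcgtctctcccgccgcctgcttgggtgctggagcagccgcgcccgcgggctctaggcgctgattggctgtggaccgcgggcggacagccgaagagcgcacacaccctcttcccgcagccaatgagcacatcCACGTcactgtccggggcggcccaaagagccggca
Egln3, chr12:54250674-54250923, minus strand: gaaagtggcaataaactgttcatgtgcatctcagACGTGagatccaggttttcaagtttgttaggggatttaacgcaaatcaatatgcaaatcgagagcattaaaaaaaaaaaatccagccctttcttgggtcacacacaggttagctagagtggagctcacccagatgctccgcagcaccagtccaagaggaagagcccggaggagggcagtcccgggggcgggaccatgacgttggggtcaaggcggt
Pfkp, chr13:6698971-6699220, minus strand: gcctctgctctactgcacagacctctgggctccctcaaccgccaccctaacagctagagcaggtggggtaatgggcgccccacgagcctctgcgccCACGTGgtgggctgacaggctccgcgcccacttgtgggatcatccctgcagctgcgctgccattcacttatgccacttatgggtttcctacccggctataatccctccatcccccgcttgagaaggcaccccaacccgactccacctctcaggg

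The Hk2 window held ACGTG at 2 places, both on the reverse strand. The Egln3 window held it once. In the Pfkp window the palindrome CACGTG gave a match on each strand, which overlap and count as 2. The Vegfa window held no match, which says only that these letters are not in these bases. Among all 33 genes, 14 (42.4%) had ACGTG in the window, against 17.0% of 21630 promoters of protein-coding genes, and 22 (66.7%) had either form of the core, against 41.3%. Among the 10 genes that differed between the WT groups 6 held ACGTG (Egln3, Hif1a, Hk2, Mxi1, Pfkp and Slc16a1), and among the 22 tested genes that did not 8 held it, Ldha with 5 matches being the richest. GCGTG went the other way, in 2 of the 10 and in 11 of the 22. Either form was held by 7 of the 10 and by 14 of the 22. A match is a stretch of letters and was not measured as a bound site.

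Levels between genes were compared in TPM, which are per length. The enzymes of the main path stood highest. Gapdh, which oxidises glyceraldehyde 3-phosphate, ranged from 1344 to 1620 TPM over the 16 samples, with a median of 1428. Its counts carry some uncertainty, because 39 copies elsewhere in the genome that share at least 50% of their transcript with it held 4.39% of the counts of the gene and its copies. Pkm (pyruvate kinase), Gpi1 (glucose-6-phosphate isomerase), Aldoa (aldolase), Ldha (lactate dehydrogenase A) and Eno1 (enolase) followed, with medians of 506, 466, 465, 425 and 359 TPM, and the ranges of neighbours in this order overlapped. Hif1a stood at a median of 157 TPM (range 104 to 247), in the same range as Pgk1 (136 TPM) and Pfkp (121 TPM). The lowest were Bnip3, a mitophagy receptor, at 2.91 TPM, Eno2, the enolase isoform of neurons, at 2.48 TPM, and Ak4, a mitochondrial adenylate kinase, at 0.0840 TPM. Ak4 held 86 counts over all samples together, did not pass the filter on low counts in any comparison and was not tested. The other 32 genes were tested in each comparison.

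**Figure D1:**
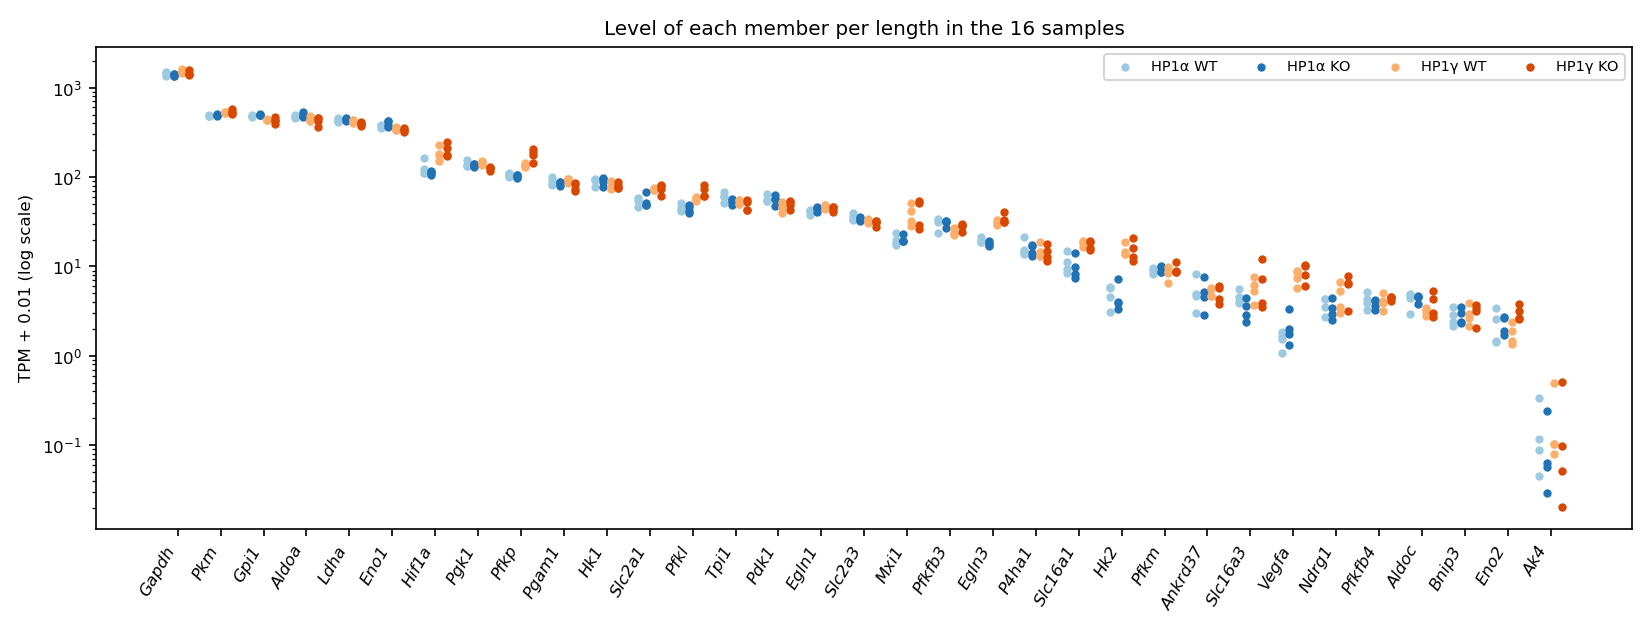
Level of each of the 33 genes in TPM (log scale, with 0.01 added) in each of the 16 samples, with the genes ordered by their mean and the 4 groups in separate colours. Gapdh is highest, near 1428 TPM, Ak4 lies below 1 TPM, and the points of the HP1α line all sit below those of the HP1γ line for Egln3, Hk2, Mxi1, Pfkl, Pfkp, Pkm, Slc16a1 and Vegfa, narrowly so for Pkm and Slc16a1. In CPM those 2 genes overlap and the other 6 do not, against 5.22% of all genes in CPM. The share of all genes was not counted in TPM.

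Within the families of alternative isoforms, 1 form held most of the TPM in every sample. The shares of the hexokinases and of the prolyl hydroxylases did not overlap between the 8 samples of each line, and those of the other families did. Hk2, the inducible hexokinase bound to mitochondria, gave 3.18% to 7.03% of the summed Hk1 and Hk2 TPM in HP1α WT samples and 3.38% to 8.47% in HP1α KO samples. In the HP1γ line its share was 13.4% to 19.0% in WT and 11.7% to 21.5% in KO samples. All samples of the HP1α line thus lay below those of the HP1γ line. Slc2a1 (GLUT1) gave 54.3% to 64.2% of the summed Slc2a1 and Slc2a3 (GLUT3) TPM in HP1α WT samples and 67.6% to 70.7% in HP1γ WT samples, but the KO samples overlapped, at 58.7% to 68.0% in the HP1α line and 66.8% to 74.7% in the HP1γ line. Egln3, the prolyl hydroxylase that HIF itself induces, gave 30.5% to 36.2% of Egln1 and Egln3 in HP1α WT and 37.3% to 41.9% in HP1γ WT samples, and 27.6% to 31.7% in HP1α KO and 40.4% to 48.7% in HP1γ KO samples. Among the phosphofructokinases, Pfkp (platelet form) held 63.1% to 71.7% over all samples, Pfkl (liver form) 24.9% to 31.3% and Pfkm (muscle form) 3.03% to 6.75%. Aldoa held at least 98.8% of the aldolase TPM and Eno1 at least 98.9% of the enolase TPM. The shares are descriptions and were not tested.

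**Figure D2:**
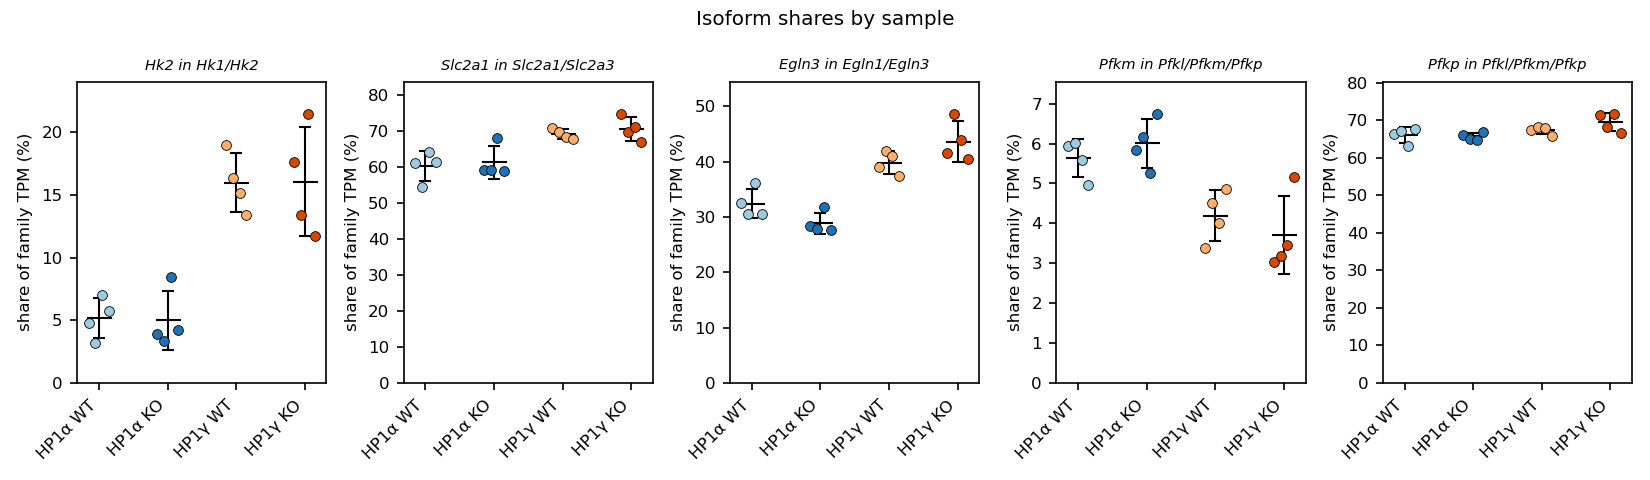
Share (%) of Hk2, Slc2a1, Egln3, Pfkm and Pfkp in the summed TPM of their family in each sample (points), with the group mean and SD (bars, n = 4). The Hk2 share lies between 3.18% and 8.47% in the 8 samples of the HP1α line and between 11.7% and 21.5% in the 8 samples of the HP1γ line.

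Libraries held 26694045 to 40199637 counts. Below, the value of a gene in a sample is its CPM, scaled by TMM factors computed over the 16 samples. Cbx3, the gene of HP1γ, was lower in HP1γ KO cells, at 47.5 ± 1.97 CPM against 84.5 ± 8.66 CPM in HP1γ WT cells (SD, n = 4 each, edgeR adjusted p = 0.00150), and Cbx5, the gene of HP1α, was at 27.1 ± 2.77 CPM in HP1α KO and 40.3 ± 9.28 CPM in HP1α WT cells without passing the test (edgeR adjusted p = 0.946). In the HP1γ line, whose cells keep the gene, Cbx5 was at 25.3 ± 4.72 CPM in KO and 31.3 ± 4.97 CPM in WT cells. The HP1γ KO cells were thus no higher in Cbx5 than the HP1α KO cells, so its count does not check the label of the HP1α KO samples. Gene-level counts include reads outside the deleted part. The summed level of 7 memory CD4 T cell markers was 3186 to 3677 CPM over all samples. Summed B cell markers ranged from 432 to 1094 CPM, regulatory T cell markers from 442 to 865 CPM and CD8 markers from 5.08 to 18.5 CPM, and no gene of these 3 lists was called between the WT groups or between KO and WT cells. Labels do not say whether the samples of a group came from separate mice, so p-values measure the spread between these samples.

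The first comparison asked whether loss of HP1α moved the glycolysis and hypoxia genes. None of the 32 was called, that is, none had an adjusted p under 0.05 in edgeR's quasi-likelihood test. Over all 14881 genes tested 0% were called, and the unadjusted p was under 0.05 for none of the 32 and for 4.27% of all genes. DESeq2 and limma on TPM called none of the 32 either. The log2 fold change was positive for 16 and negative for 16, and its median was -0.01, against 0.00 over all genes. The changes ran from -0.25 for Slc16a3 (a lactate exporter) to 0.28 for Vegfa, with standard errors of 0.202 and 0.370.

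The smallest p belonged to oxygen sensing genes. Egln1, which encodes PHD2, the main prolyl hydroxylase acting on HIF-1α, stood at 102, 99.9, 97.5 and 99.5 CPM in HP1α KO samples and at 92.9, 91.8, 89.5 and 96.1 CPM in HP1α WT samples. All 4 KO samples lay above all 4 WT samples, but the difference was small and did not pass the test (log2 fold change 0.11, SE 0.0487, edgeR adjusted p = 0.946). Hif1a was at 230, 246, 259 and 255 CPM in HP1α KO samples and at 242, 353, 322 and 252 CPM in HP1α WT samples. These overlapped, with HP1α WT replicates 2 and 3 above the rest (log2 fold change -0.24, SE 0.113, edgeR adjusted p = 0.946). Eno1 stood at 489, 478, 450 and 439 CPM in KO and at 447, 415, 427 and 441 CPM in WT samples (0.10, SE 0.0539, edgeR adjusted p = 0.946). Slc2a3 was the other gene whose groups did not overlap, with 74.4 to 76.7 CPM in KO samples below 78.0 to 81.6 CPM in WT samples. Thus 2 of 32 genes had separate groups, against 2.96% of all genes.

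In HP1α KO cells the fold changes of all genes followed GC content (Spearman's rho 0.39 over 14814 genes, a description across genes), and with a correction for GC content the median of the 32 genes was -0.04 and none was called.

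After loss of HP1γ, again none of the 32 genes was called by edgeR, where 0.327% of 14975 genes were. The unadjusted p was under 0.05 for 4 of them (Pgk1, Pgam1, Ldha and Pfkp), against 11.9% of all genes, a like share. The log2 fold change was positive for 13 and negative for 19, with a median of -0.06 against 0.00 over all genes. The sign of that median rested on single libraries, since it ran from -0.12 without HP1γ WT replicate 3 to 0.01 without HP1γ WT replicate 1. By limma on TPM it was 0.02, where the median over all genes was also higher, at 0.06 or 0.07. Of the 6 enzymes of the payoff phase, which make ATP and pyruvate, 5 had a negative value, from -0.32 for Pgam1 to -0.07 for Pkm, and the rarely expressed Eno2 was at 0.34.

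Pgk1, phosphoglycerate kinase, which makes the first ATP of the pathway, measured 125, 132, 135 and 130 CPM in HP1γ KO samples, while HP1γ WT samples had 173, 168, 147 and 148 CPM. The groups did not overlap (log2 fold change -0.28, SE 0.0682, edgeR adjusted p = 0.183). Pgam1, phosphoglycerate mutase, was at 71.7, 83.0, 69.3 and 82.9 CPM in KO and at 104, 97.5, 86.7 and 98.6 CPM in WT samples, again without overlap (-0.32, SE 0.0830, edgeR adjusted p = 0.205). DESeq2 called both genes, with adjusted p = 0.0304 for Pgk1 and 0.0369 for Pgam1, as did edgeR in a fit of all 16 samples, with adjusted p = 0.0399 and 0.0498. Gpi1 was the third gene with separate groups, at 387 to 417 CPM in KO and 418 to 452 CPM in WT samples, and 3 of 32 compare with 7.1% of all genes. The copies of Pgk1 and Pgam1 elsewhere in the genome held 1.51% and 0.729% of the counts.

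Pfkp moved the other way. This phosphofructokinase, which catalyses the committed step of glycolysis, reached 473, 435, 413 and 312 CPM in the KO group of the HP1γ line, where the WT group had 326, 332, 314 and 307 CPM. Replicates 1 to 3 of the KO group lay above every WT sample and replicate 4 lay among them (log2 fold change 0.36, SE 0.111, edgeR adjusted p = 0.288). Without that replicate the log2 fold change was 0.47 and Pfkp was the 1 gene of the 32 that was called, against 0.289% of 15239 genes in that fit. Ldha was at 324, 346, 360 and 339 CPM in KO and at 411, 410, 351 and 368 CPM in WT samples, where HP1γ WT replicate 3 lay within the KO range (-0.16, SE 0.0681, edgeR adjusted p = 0.399). The red cell markers, mature red cells being strongly glycolytic, summed to 81.9 to 1209 CPM in HP1γ KO and to 45.9 to 531 CPM in HP1γ WT samples, and the part of such RNA in these values was not tested.

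Whether the effects of the knockouts differed was tested as an interaction over all 16 samples. No gene of the 32 was called, against 0.0507% of 15776 genes. The unadjusted p was under 0.05 for 8 of 32, against 9.58% of all genes, but this number depended on the fit. DESeq2 gave the same 8, against 5.87% of all genes, and fits without 1 library gave 6 to 8. The interaction followed GC content (Spearman's rho 0.24 over 15701 genes, a description across genes). With an offset for GC content, added after these values had been seen, 3 remained (Eno1, Pfkp and Pgk1), against 8.66% of all genes. The 2 fits by limma on TPM gave 3 and 2, against 8.77% and 8.53% of all genes, with Pfkp and Pfkl in both. For 7 of these 8 (Aldoa, Egln1, Eno1, Gpi1, Ldha, Pgam1 and Pgk1) the effect of HP1α loss was the more positive, and for Pfkp that of HP1γ loss was. The smallest p belonged to Egln1 (difference of the log2 fold changes 0.27, SE 0.0900, edgeR adjusted p = 0.416). Egln1 stood at 100.3, 92.2, 89.0 and 98.2 CPM in HP1γ KO samples, with 117, 107, 93.7 and 108 CPM in HP1γ WT samples, so that its groups overlapped in that line. For Pfkp the difference was -0.41 (SE 0.135, edgeR adjusted p = 0.420) and for Pgk1 0.24 (SE 0.0851, edgeR adjusted p = 0.440).

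**Figure D3:**
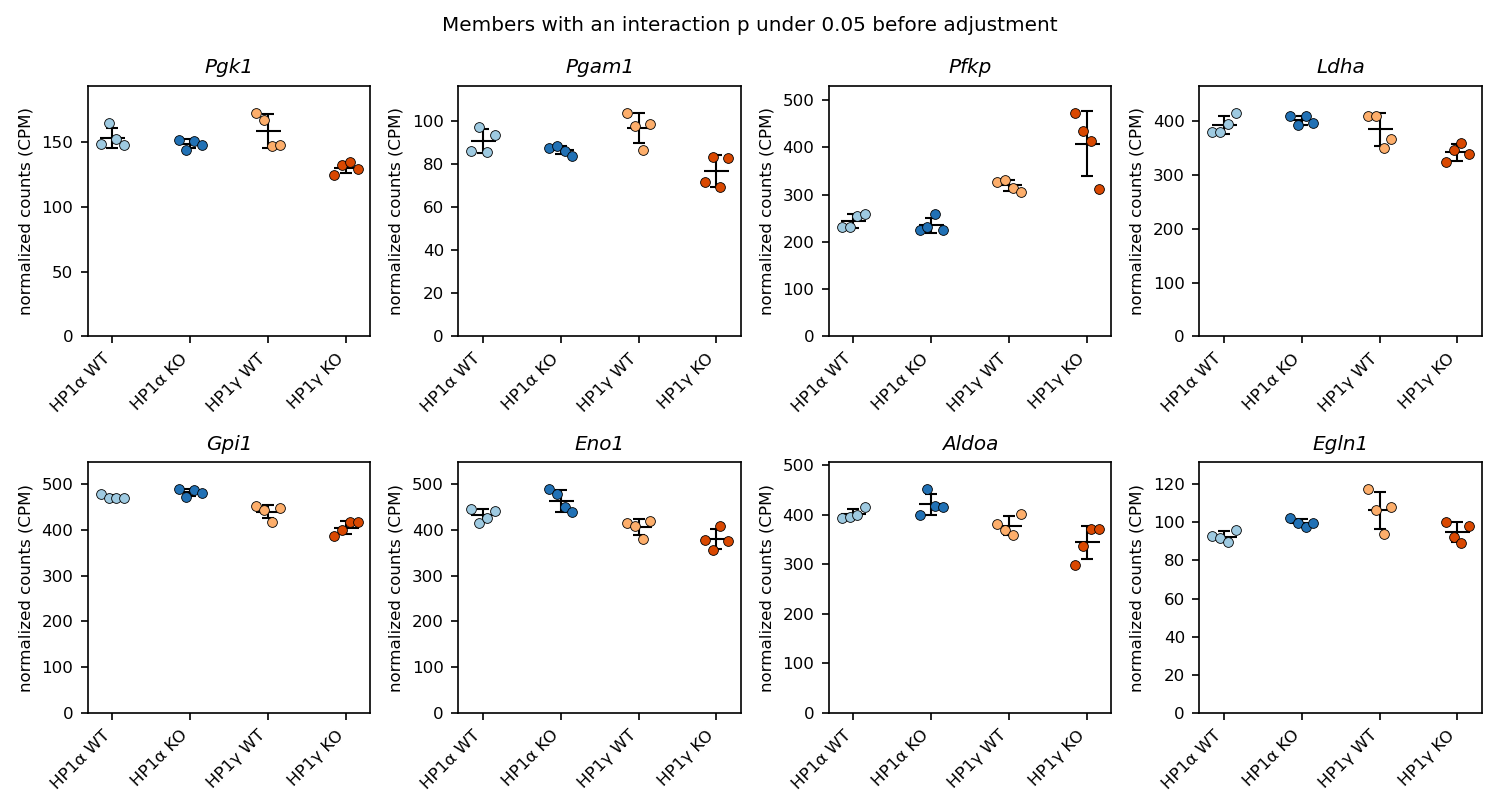
CPM in each sample (points) of the 8 genes with an unadjusted interaction p under 0.05, with the group mean and SD (bars, n = 4). Pgk1 and Pgam1 sit lower in HP1γ KO than in HP1γ WT samples without overlap, Pfkp sits higher in 3 of 4 HP1γ KO samples, and none of the 8 passed the adjusted test. With an offset for GC content 3 of them (Eno1, Pfkp and Pgk1) kept an unadjusted p under 0.05.

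The WT cells of the lines differed much more. They share no sample with each other, but each WT group is also the control of its own KO comparison above, and line, litter and any batch cannot be told apart. Of the 32 genes 10 were called (31.2%), against 12.8% of 14804 genes. Lower in HP1α WT cells were 9 genes, against 8.25% of all genes, and higher was 1, against 4.55%. The 3 genes Vegfa, Hk2 and Mxi1 also passed an absolute log2 fold change of 1, as 1.9% of all genes did. The median log2 fold change of the 32 was -0.11, against 0.02 over all genes. By role, 2 of 3 oxygen sensing genes, 3 of 7 hypoxia-induced genes, 3 of 9 enzymes of the preparatory phase, 1 of 2 glucose transporters and 1 of 3 genes of lactate formation and export were called, and none of 6 payoff enzymes and none of 2 regulators of phosphofructokinase.

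**Figure D4:**
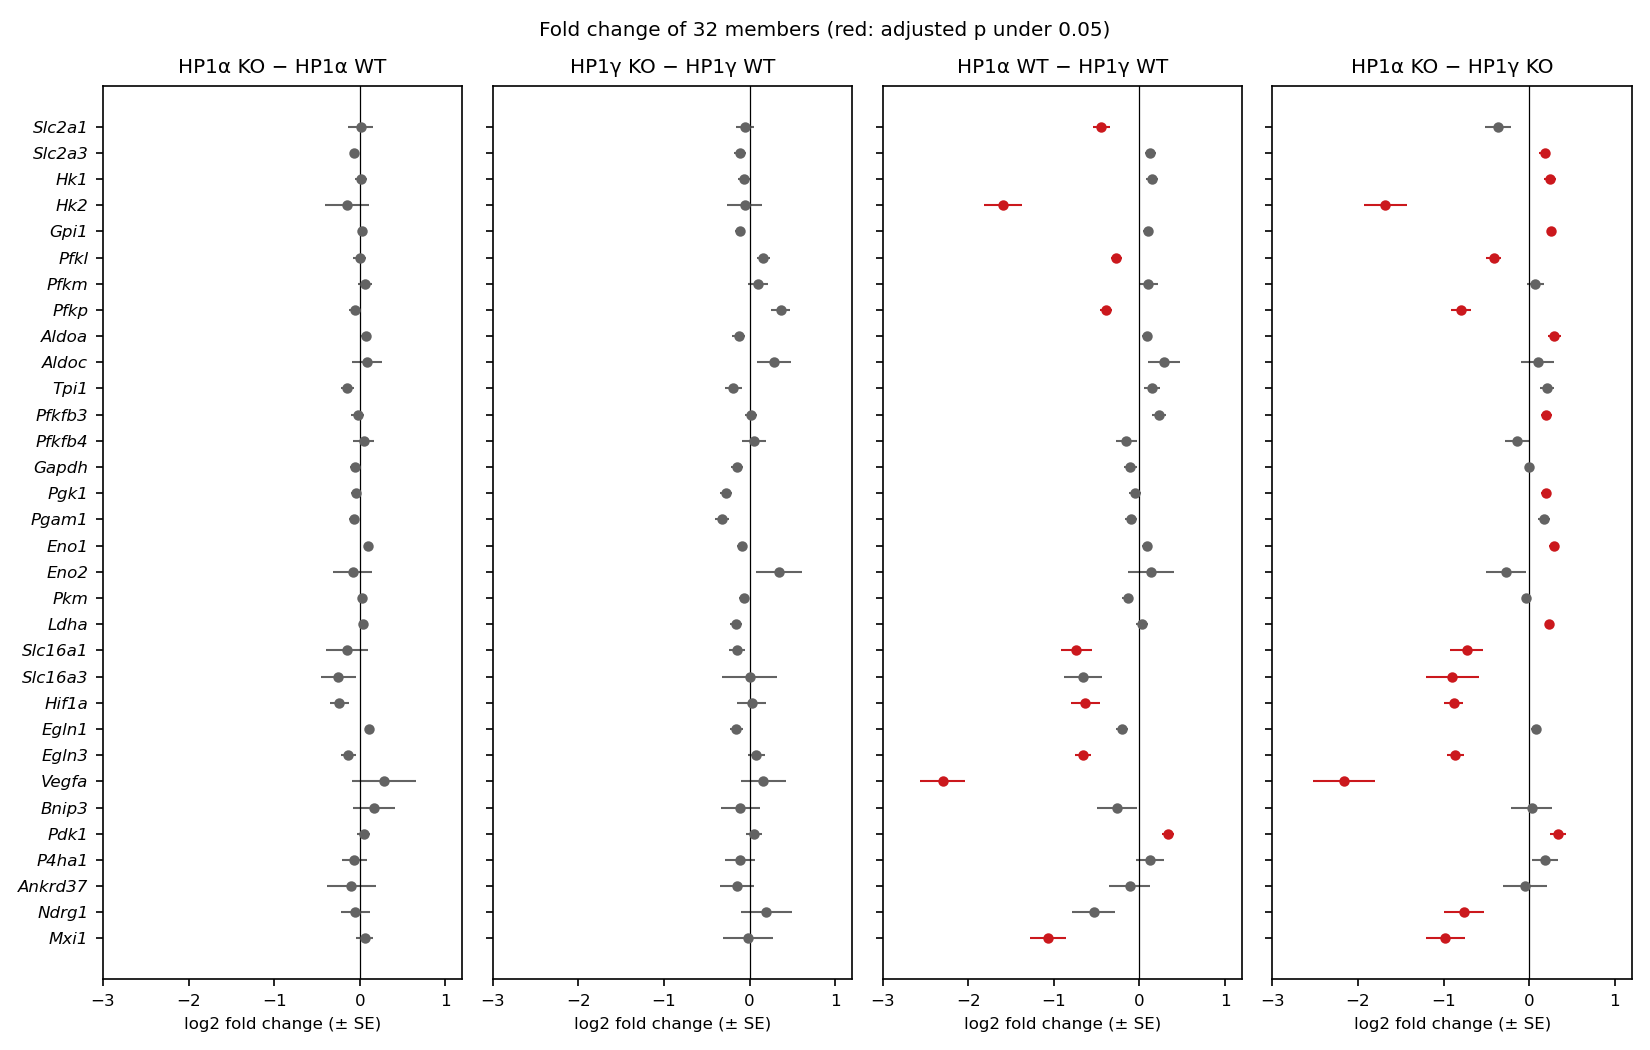
Log2 fold change with its SE of the 32 tested genes, ordered by role from glucose uptake to hypoxia-induced genes, in the KO to WT comparison of each line, between the WT groups and between the KO groups. Red marks an adjusted p under 0.05. There is no red point in the first 2 panels, and there are 10 in the third and 19 in the last.

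Among the hypoxia-induced genes, Vegfa, the growth factor that draws in vessels, differed most. It was at 2.44, 1.86, 2.28 and 3.76 CPM in HP1α WT samples and at 16.003, 14.7, 7.68 and 12.4 CPM in HP1γ WT samples. All HP1α WT samples lay well below the lowest HP1γ WT sample. The fitted level was 4.92-fold lower in HP1α WT cells (log2 fold change -2.30, SE 0.264, edgeR adjusted p = 0.00158), from a gene that is weakly expressed in both. Mxi1, a MYC antagonist that HIF induces, was at 24.1, 23.3, 29.1 and 27.5 CPM in HP1α WT and at 79.0, 60.8, 40.9 and 37.2 CPM in HP1γ WT samples. The HP1γ WT samples were widely spread, yet all lay above the HP1α WT samples (-1.07, SE 0.210, edgeR adjusted p = 0.0123). Pdk1, the kinase that turns off pyruvate dehydrogenase, was the exception in direction, at 96.6, 96.3, 80.3 and 84.8 CPM in HP1α WT and at 66.9, 74.4, 70.6 and 71.8 CPM in HP1γ WT samples (0.33, SE 0.0755, edgeR adjusted p = 0.0207). Bnip3, P4ha1 (collagen prolyl hydroxylase), Ankrd37 and Ndrg1 were not called, with log2 fold changes from -0.53 for Ndrg1 to 0.13 for P4ha1.

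In oxygen sensing, Hif1a and Egln3 were both lower in HP1α WT cells. Hif1a had the overlapping values of 242, 353, 322 and 252 CPM in HP1α WT and 601, 449, 341 and 419 CPM in HP1γ WT samples, where HP1γ WT replicate 3 fell below HP1α WT replicate 2 (log2 fold change -0.63, SE 0.168, edgeR adjusted p = 0.0355). Egln3 was at 32.5, 29.5, 37.0 and 30.7 CPM in HP1α WT and at 54.8, 55.8, 47.6 and 46.9 CPM in HP1γ WT samples, without overlap (-0.66, SE 0.0945, edgeR adjusted p = 0.00361). Egln1 was not called (-0.20, SE 0.0729, edgeR adjusted p = 0.0919).

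At the entry of the pathway, Slc2a1 was at 83.0, 70.9, 96.7 and 87.6 CPM in HP1α WT and at 123, 121, 105 and 111 CPM in HP1γ WT samples. The 4 HP1α WT samples all lay lower (log2 fold change -0.44, SE 0.0987, edgeR adjusted p = 0.0190). Slc2a3, the other transporter, was not called, at 0.13 (SE 0.0604, edgeR adjusted p = 0.185), although its values did not overlap. Hk2, which traps glucose in the cell by phosphorylation, was at 15.2, 10.6, 21.8 and 19.5 CPM in HP1α WT and at 67.7, 48.1, 42.4 and 43.9 CPM in HP1γ WT samples. This was a 3.02-fold lower level in HP1α WT cells (-1.59, SE 0.220, edgeR adjusted p = 0.00340). Hk1, the constitutive hexokinase, was not called (0.15, SE 0.0708, edgeR adjusted p = 0.183).

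The phosphofructokinases split. Pfkp was at 231, 231, 255 and 259 CPM in HP1α WT against 326, 332, 314 and 307 CPM in HP1γ WT samples, without overlap (log2 fold change -0.39, SE 0.0659, edgeR adjusted p = 0.00702). Pfkl was at 68.6, 65.9, 76.8 and 69.96 CPM against 87.3, 85.2, 81.4 and 84.3 CPM, a small difference, also without overlap (-0.27, SE 0.0686, edgeR adjusted p = 0.0313). Pfkm was not called (0.10, SE 0.110). Both called genes overlap a neighbouring gene at an end, Pfkp with Pitrm1 and Pfkl with Cfap410. Summed with those neighbours they were still called.

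Of the genes of lactate handling, Slc16a1, which encodes the transporter MCT1, was at 23.1, 25.5, 44.2 and 31.5 CPM in HP1α WT and at 55.9, 54.6, 50.6 and 45.6 CPM in HP1γ WT samples. HP1α WT replicate 3 came close to the lowest HP1γ WT sample without reaching it (log2 fold change -0.74, SE 0.178, edgeR adjusted p = 0.0261). Slc16a3, which encodes MCT4, was at -0.66 without passing the test (SE 0.223, edgeR adjusted p = 0.0746). Ldha was close in both groups, at 380, 381, 395 and 416 CPM in HP1α WT and 411, 410, 351 and 368 CPM in HP1γ WT samples (0.03, SE 0.0707, edgeR adjusted p = 0.828).

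The abundant enzymes after phosphofructokinase differed little between the WT groups. Aldoa, Tpi1 (triose phosphate isomerase), Gapdh, Pgk1, Pgam1, Eno1 and Pkm had log2 fold changes from -0.14 for Pkm to 0.15 for Tpi1, and none was called. Gapdh, for instance, was at 1071, 1088, 1193 and 1042 CPM in HP1α WT and at 1295, 1229, 1065 and 1132 CPM in HP1γ WT samples. In total the groups did not overlap for 11 of the 32 genes, against 19.5% of all genes.

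**Figure D5:**
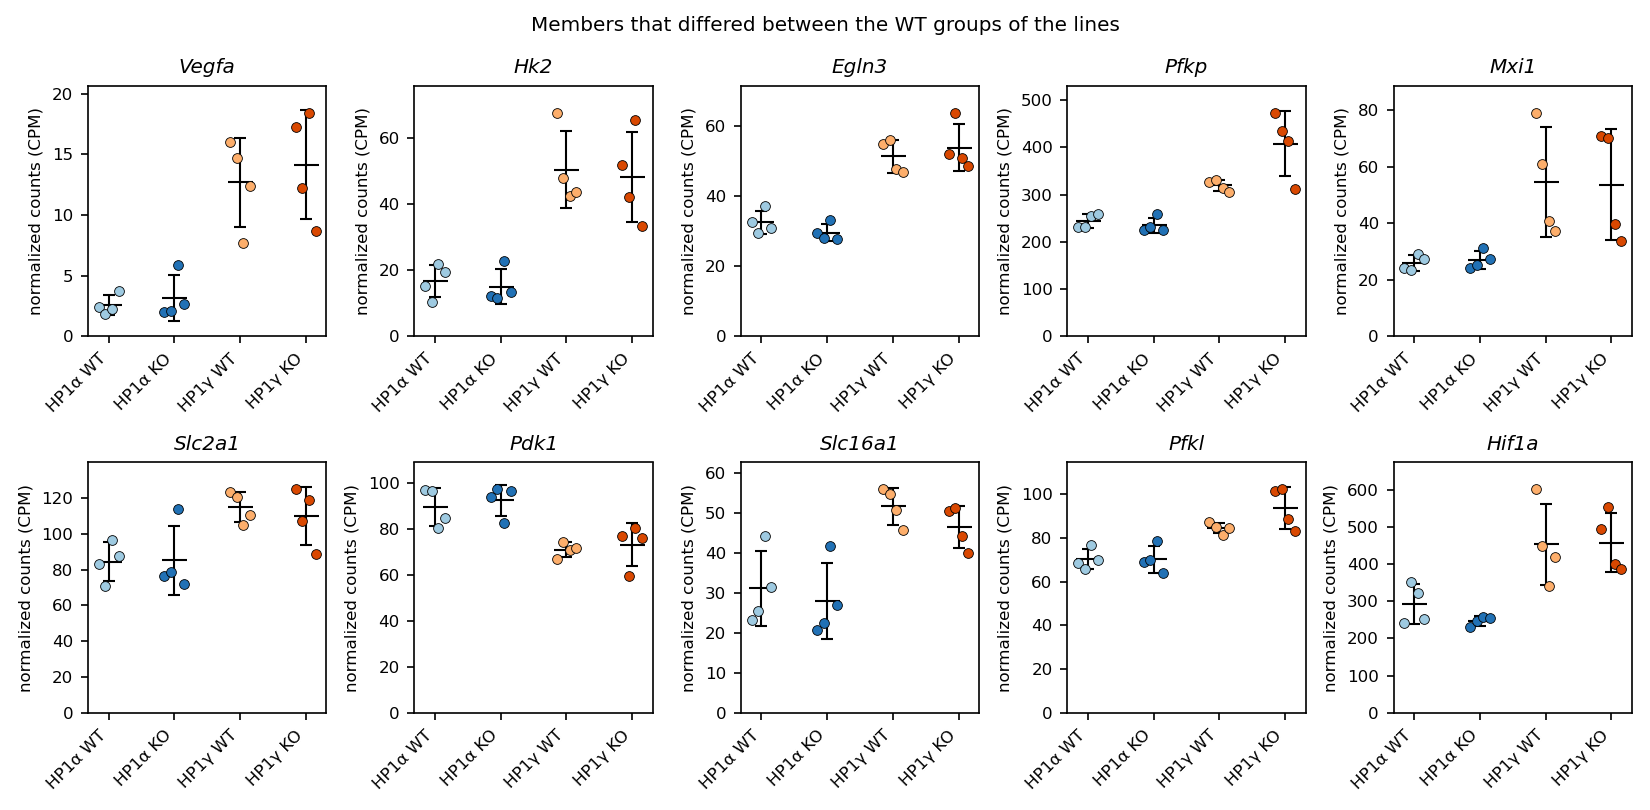
CPM in each sample (points) of the 10 genes called between the WT groups, with the group mean and SD (bars, n = 4). The group means of the HP1α line lie below those of the HP1γ line for each gene but Pdk1. The WT and KO points of a line overlap in each of the 10. For Pfkp, Pfkl and Pdk1, however, 3 of the 4 HP1γ KO samples lie above all HP1γ WT samples. For Pfkp and Egln3, 3 of the 4 HP1α KO samples lie below all HP1α WT samples, by small margins.

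Leaving out 1 library moved the number of called genes. It was 5 without HP1α WT replicate 1, without HP1γ WT replicate 1 or without HP1γ WT replicate 2 (Egln3, Hk2, Mxi1, Pfkp and Vegfa each time); 573, 613 and 626 genes were called in all.

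The KO groups of the lines were then compared, in samples that the WT comparison did not use. These groups differ in line, in the gene deleted and in Cre, so their values hold the line difference together with any difference between the effects of the knockouts and are no repeat of the WT comparison. This comparison was added after the WT values had been seen, and it shares its samples with the KO to WT comparisons. Here 19 of the 32 genes were called, against 32.8% of 15020 genes, 10 of them lower in HP1α KO cells (16.8% of all genes) and 9 higher (16%). Of the 10 genes called between the WT groups 9 were called again with the same sign, and the tenth, Slc2a1, was at -0.36 (SE 0.152, edgeR adjusted p = 0.0878). Vegfa was at 1.98, 2.07, 5.91 and 2.65 CPM in HP1α KO and at 17.2, 12.2, 18.4 and 8.70 CPM in HP1γ KO samples (log2 fold change -2.16, SE 0.363, edgeR adjusted p = 0.00285). Hk2 was at 12.2, 11.6, 22.9 and 13.5 CPM against 52.0, 42.3, 65.5 and 33.4 CPM (-1.68, SE 0.250, edgeR adjusted p = 0.00186). The samples of both genes were again apart.

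Other measures are set beside this comparison. No marker sum passed its test between the KO groups, with an adjusted p of 0.549 for mitochondrial RNA and for red cell markers (exact permutation test). RNA encoded by mitochondria summed to 15794 to 19998 CPM in HP1α KO samples, below the 21466 to 26263 CPM of HP1γ KO samples without overlap, whereas the sums of the WT groups overlapped. Of the red cell markers tested 5 of 5 were lower in HP1α KO cells, where the whole list summed to 35.4 to 187 CPM against 81.9 to 1209 CPM. The fold changes of all genes followed GC content (Spearman's rho 0.22 over 14950 genes, a description across genes). The part of mitochondrial and red cell RNA in the calls was not tested. With an offset for GC content 16 of the 32 genes were called, against 29.2% of all genes, of which 11 were lower and 5 higher. Without HP1α KO replicate 1 or without HP1α KO replicate 2 the number was 12, against 23.6% and 22.3% of all genes. Under all 20 alternatives Egln3, Hif1a, Hk2, Mxi1, Pfkl, Pfkp, Slc16a1 and Vegfa were called lower, and Eno1 and Gpi1 higher, in HP1α KO cells.

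Hif1a, which overlapped between the WT groups, did not overlap between the KO groups, at 230 to 259 CPM against 385 to 552 CPM (log2 fold change -0.88, SE 0.110, edgeR adjusted p = 0.00104). Egln3 was at 27.6 to 33.0 CPM against 48.5 to 63.7 CPM (-0.86, SE 0.0968, edgeR adjusted p = 7.16e-04) and Pfkp at 225 to 258 CPM against 312 to 473 CPM (-0.80, SE 0.115, edgeR adjusted p = 0.00166). The 9 higher genes were Slc2a3, Hk1, Gpi1, Aldoa, Pfkfb3, Pgk1, Eno1, Ldha and Pdk1, with log2 fold changes of 0.18 to 0.34. Among them, Gpi1 was at 471 to 489 CPM in HP1α KO and at 387 to 417 CPM in HP1γ KO samples (0.25, SE 0.0498, edgeR adjusted p = 0.00500). Pfkfb3, whose product makes the activator of phosphofructokinase, was at 66.0 to 72.8 CPM against 56.1 to 64.8 CPM (0.20, SE 0.0658, edgeR adjusted p = 0.0408). Ndrg1 and Slc16a3, not called in WT cells, were lower in HP1α KO cells, at -0.77 (SE 0.233, edgeR adjusted p = 0.0298) and -0.90 (SE 0.308, edgeR adjusted p = 0.0460).

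Counted over both genotypes, all 8 samples of the HP1α line lay below all 8 of the HP1γ line for Egln3, Hk2, Mxi1, Pfkl, Pfkp and Vegfa, 6 of the 32 genes, against 5.22% of 15776 genes. Gpi1 was the 1 gene for which all 8 lay above, against 3.61% of all genes.

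Within groups the inducible genes were uneven. In the HP1γ line, Mxi1 was at 70.7 and 70.2 CPM in KO replicates 1 and 2 and at 39.7 and 33.7 CPM in replicates 3 and 4, and the WT samples of the same numbers showed the same split. Hif1a in HP1γ KO samples was at 493 and 552 CPM in replicates 1 and 2 and at 400 and 385 CPM in replicates 3 and 4. In the HP1α line, replicate 3 of the KO group was highest for Slc2a1 (114 CPM, the others 72.2 to 78.8 CPM), Hk2, Slc16a1 and Vegfa, and replicate 3 of the WT group was highest for Slc2a1, Hk2 and Slc16a1.

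Other genes of the pathways, from lists of 24 other glycolysis genes, 13 of pyruvate oxidation, 8 of the pentose phosphate pathway, 21 other HIF pathway genes and 16 regulators of T cell glycolysis, were tested in the same fits. Between KO and WT cells of either line, and in the interaction, none was called. In HP1α KO cells the smallest p of each list belonged to Ldhb, Pdk3, Pgls, Plod2 and Akt2, with log2 fold changes of -0.15, -0.20, 0.12, -0.80 and 0.08 (edgeR adjusted p = 0.946 each). In HP1γ KO cells it belonged to Adpgk, Dlat, Tkt, Ero1a and Irf4, with 0.15, -0.17, -0.12, -0.35 and 0.38 and edgeR adjusted p from 0.127 for Ero1a to 0.498 for Tkt. In the interaction it belonged to Slc2a6, Dlat, Taldo1, Stc2 and Tsc1, with -0.70, 0.25, 0.19, -1.60 and -0.24 and edgeR adjusted p from 0.348 for Stc2 to 0.625 for Slc2a6.

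Between the WT groups, where 12.8% of all genes were called, genes of 4 of the 5 lists were called. Among the regulators 5 of 16 were lower in HP1α WT cells and 1 was higher. Bhlhe40, a transcription factor of activated T cells, was at 830 to 1044 CPM in HP1α WT and at 1538 to 2024 CPM in HP1γ WT samples (log2 fold change -1.01, SE 0.103, edgeR adjusted p = 0.00103). Slc3a2, a subunit of an amino acid transporter, was lower too, at -0.92 (SE 0.125, edgeR adjusted p = 0.00313). So was Irf4, a factor that antigen receptor signalling induces, at -1.06 (SE 0.168, edgeR adjusted p = 0.00569). Rheb, the GTPase that activates mTOR complex 1, was at -0.62 (SE 0.0691, edgeR adjusted p = 0.00151). Pik3ip1, an inhibitor of PI3K, was higher, at 36.7 to 42.2 CPM against 28.4 to 33.5 CPM (0.37, SE 0.0809, edgeR adjusted p = 0.0185).

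The other lists had counts near or below the share over all genes, and nothing about them is read from these counts. Of 20 other HIF pathway genes tested 3 were lower in HP1α WT cells and none higher. These were Hif1an, which encodes the asparaginyl hydroxylase FIH that inhibits HIF (-0.41, SE 0.0691, edgeR adjusted p = 0.00706), Epas1, which encodes HIF-2α (-1.17, SE 0.237, edgeR adjusted p = 0.0139), and Cited2, a competitor of HIF for its coactivator (-0.39, SE 0.0979, edgeR adjusted p = 0.0289). Of 15 other glycolysis genes tested Bpgm alone was called (-0.49, SE 0.0793, edgeR adjusted p = 0.00617). Bpgm makes 2,3-bisphosphoglycerate, mostly known from red cells, and red cell markers summed to 16.4 to 544 CPM in HP1α WT and to 45.9 to 531 CPM in HP1γ WT samples. Of 12 pyruvate oxidation genes tested Mpc1, a subunit of the mitochondrial pyruvate carrier, was called (-0.32, SE 0.0933, edgeR adjusted p = 0.0481). No gene of the pentose phosphate pathway was called, and the smallest p was that of H6pd (0.29, SE 0.100, edgeR adjusted p = 0.0800).

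Between the KO groups, where 32.8% of all genes were called, 6 of the 16 regulators were lower in HP1α KO cells and 2 were higher. Of the HIF pathway genes 4 of 19 were lower and 2 higher, of the other glycolysis genes 2 of 15 were lower, of the pyruvate oxidation genes 2 of 12 were lower and 1 higher, and of the pentose phosphate pathway 4 of 8 were higher. Bhlhe40, Slc3a2, Irf4, Rheb, Hif1an and Bpgm were again lower and Pik3ip1 again higher. Epas1 (log2 fold change -0.42, SE 0.217, edgeR adjusted p = 0.163), Cited2 (-0.21, SE 0.110, edgeR adjusted p = 0.169) and Mpc1 (-0.20, SE 0.0775, edgeR adjusted p = 0.0728) were not called there.

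Some marker genes were called between the WT groups too, where 12.8% of all genes were. For the memory markers the count was near that share, and nothing about them is read from it. Cd44, the memory marker used in the sort, was the 1 of 7 memory markers called between the WT groups (log2 fold change -0.35, SE 0.0660, edgeR adjusted p = 0.0104), and the summed markers were 3320 to 3558 CPM in HP1α WT and 3329 to 3677 CPM in HP1γ WT samples. Of 10 genes of the response to cell dissociation, Hspa1a (2.28, SE 0.610, edgeR adjusted p = 0.0364) and Hspa1b (2.48, SE 0.676, edgeR adjusted p = 0.0387) were higher and Atf3 (-1.50, SE 0.255, edgeR adjusted p = 0.00706) was lower in HP1α WT cells, and the sums were 6760 to 8486 CPM against 6304 to 8963 CPM. The part of either in the differences of the glycolysis and hypoxia genes was not tested. In 2 fits added after these values had been seen, with an offset for GC content the same 10 genes were called, and with an offset for transcript length 9 were, Pfkl having an adjusted p = 0.0682.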

How the data were processed

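Reads of polyA RNA libraries were trimmed (Trim Galore), aligned to GRCm39 (STAR) and assigned to genes (Salmon) by the authors. The authors deposited estimated counts per gene without normalization (11.6% of the values are not whole) and TPM, which sum to 1000000 in each sample and keep no depth. Samples were grouped by title. A label on transferred cells goes against the account of the memory cell experiment and was not used.

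Rounded counts were tested with edgeR 4.0.16 in R 4.3.3 (TMM, filterByExpr with a minimum count of 10, quasi-likelihood test, Benjamini-Hochberg adjustment over all genes tested) in fits of 8 samples, and the interaction in a fit of 16. A gene was called at an adjusted p under 0.05. DESeq2 1.42.0, limma 3.58.1 on log2(TPM + 1) or log2(TPM + 0.1) and other scalings were alternatives. On simulated data for HP1γ KO against WT, 200 genes above a minimum mean count were changed 2-fold. Of these edgeR recovered 85.5%, with 4.47% false calls (14732 genes). DESeq2, run without the filter (14975 genes), recovered 91%, with 17.6% false calls. The simulated noise followed the spread that edgeR estimated. Smaller changes, such as those of Pgk1, Pgam1 and Pfkp in HP1γ KO cells, were not simulated. Marker sums were compared by exact permutation test, for which 4 against 4 cannot go below p = 0.0286. None passed after adjustment over 48 tests.

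Sequence and gene positions came from GRCm39 with a GENCODE annotation of another release than the authors' own. Copies were found with blastn 2.17.0 (at least 150 bases at 98% identity). Replicate numbers were not taken as pairs, since not every same-numbered pair correlated with r over 0.1. Replicates differed by more than counting noise in all 24 pairs compared. The members and lists were chosen with earlier results of these data known. Named were all 33 genes by role, per-sample values for those called or among the 3 smallest p of a comparison, Cbx5 and Cbx3, and of other lists up to 5 called genes or the 1 with the smallest p. Ldha, Gpi1 and Gapdh, and the marker genes, were given per-sample values or named after their values were seen.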

Additional observations from a re-analysis of the deposited data

Results flagged for a closer look

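Among 132 groups of 4 samples, 7 held a sample far from the other 3, a rate that chance gives in about 1 of 20 groups. All 7 were the highest of their group. HP1α KO replicate 3 stood apart for Slc2a1 (114 CPM, the next at 78.8), Hk2 (22.9 CPM, the next at 13.5) and Pfkp (258 CPM, the next at 230). HP1α WT replicate 3 stood apart for Pkm (722 CPM, the next at 672) and for the weakly expressed Eno2 (2.68 CPM, the next at 1.71). HP1α WT replicate 1 stood apart for Gpi1 (478 CPM), where the other 3 lay within 469.6 to 470.0 CPM, and HP1γ KO replicate 4 for Pfkm (18.5 CPM, the next at 15.1).

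The effects of the knockouts were flagged as different for Ldha and Egln1, with opposite signs. Aldoa, Eno1, Gpi1 and Pfkp, which also had an unadjusted interaction p under 0.05 in edgeR, had opposite signs too. For Ldha the effect of HP1α loss was 0.03 (SE 0.0486), so its sign is not settled. The interaction was 0.20 on the log2 scale for Ldha (edgeR adjusted p = 0.454) and 0.27 for Egln1 (edgeR adjusted p = 0.416), so neither difference passed the adjusted test.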

How the results depend on the processing

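None of the genes given as called, or among the 3 smallest p of a comparison, changed the sign of its log2 fold change under any alternative, but the medians over the 32 genes did. Between HP1α KO and WT cells none of the 32 genes was called under any alternative, and their median log2 fold change was -0.0435 with a GC content offset, an alternative chosen after seeing the data, and from -0.0439 to 0.0143 when 1 library was left out, against -0.0121 in the reported fit. Between HP1γ KO and WT cells 2 genes were called by DESeq2 and 2 in a fit of all 16 samples (Pgk1 and Pgam1), and 0 to 1 when 1 library was left out. The median was -0.0620 there, from -0.120 to 0.00923 when 1 library was left out. It was 0.0191 by limma on TPM, where the median over all genes was 0.0555 or 0.0661. The cause was not tested. All genes called there numbered 49, and 252 by DESeq2, 96 in the fit of all 16 samples, 73 without the filter and 28 or 32 by limma.

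Between the WT groups 10 genes were called. With the replicate block 4 were (577 genes in all, 3.90%). That block joins samples of different lines by number, and the deviations of same-numbered WT samples correlated with r of -0.204 to -0.0654. Leaving out 1 library gave 5 to 12, with fewer samples in the fit. The share of all genes called moved too, from 3.78% to 14.5% over the fits without 1 library. The deviations of same-numbered KO and WT samples correlated with r of 0.0940 to 0.228 in the HP1α line, where 3 of 4 KO samples correlated best with their own number, and with r of 0.00286 to 0.153 in the HP1γ line, where 1 of 4 did. This is a hint from the data of a shared number in the HP1α line, not a pairing in the labels. Such correlations need not show a split of replicates 1 and 2 from 3 and 4, which the HP1γ line had. The chi-square per gene, a measure of how far 2 libraries differ, was 10.4 and 19.1 within these pairs in HP1γ KO. Across them it was 25.7 to 38.9. In HP1γ WT it was 14.3 and 13.7 within, against 32.6 to 41.0 across. The reported fit does not model this split, and its cause was not tested. In each KO to WT comparison the replicate block called none of the 32. In the KO samples of both lines, chosen after seeing the data, 19 were called and the median was 0.0129, against -0.110 in the WT samples. That comparison gave 12 to 20 under its own alternatives, where 16.9% to 34.2% of all genes were called. The other alternatives of the WT comparison gave 8 to 12, where 6.50% to 16.1% of all genes were called. Egln3, Hk2, Pfkp and Vegfa were called under all 20 alternatives of the WT comparison. Depth limits Ak4, Bnip3, Eno2 and Ankrd37, which had at most 3.01 CPM in each sample.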
